A study of Mus musculus with 20 samples.

Results

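The negative acute phase carriers examined here are 9 genes for plasma proteins that the liver secretes and that bind hormones, vitamins, fatty acids or minerals, namely Alb, Ttr, Rbp4, Ahsg, Fetub, Gc, Afm, Serpina6 and Serpina7. The set was put together with earlier results of these data known, its rows were found by gene symbol, and each symbol matched 1 row among the 37681 genes listed in each of the 6 count tables. All 9 were among the 15578 detected genes, which had at least 5 reads in at least 5 of the 10 libraries of some table. The liver RNA came from 10 male C57 mice (given as C57/B6J or C57/BL6) aged 12 weeks, of which 5 had received IL-1β at 20 µg/kg and 5 saline (untreated), both into the peritoneal cavity. Livers were taken 4 h after the injection. No transgene or mutant allele is given for either group. Aliquots of the RNA of each mouse were sequenced on an Illumina and on an Ion Torrent instrument, and the reads of each platform were aligned with GSNAP, with STAR, and with STAR followed by Bowtie2, which gives 6 tables of 10 libraries.

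In the acute phase response, cytokines such as IL-1β and IL-6 make hepatocytes change the mix of proteins they secrete. Proteins whose plasma level rises are called positive acute phase proteins, and those whose level falls are called negative ones. Many of the latter are carriers, made mainly by hepatocytes and among the most abundant liver transcripts. Albumin, afamin and the vitamin D-binding protein belong to one gene family with alpha-fetoprotein. Transthyretin and retinol-binding protein circulate as a complex that carries thyroxine and retinol. Corticosteroid-binding globulin (Serpina6) and thyroxine-binding globulin (Serpina7) are serpins that have no protease-inhibiting role and bind cortisol-type steroids and thyroid hormone. The fetuins (Ahsg and Fetub) are cystatin-type proteins, and fetuin-A is known to bind calcium phosphate and to keep it in solution.

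The members lie on 6 chromosomes, with positions on NCBIM37 (mm9) as in the Ensembl gene models. On chromosome 5, Alb (90889915 to 90905629, plus strand) is followed by Afp after 14.11 kb, and Afp by Afm (90947958 to 90982569, plus strand) after 10.02 kb, while Gc (89846549 to 89886790, minus strand) lies 1003 kb before Alb. On chromosome 16, Ahsg (22892115 to 22899511) and Fetub (22918455 to 22939839) lie on the plus strand with 18.94 kb between them. Serpina6 is on chromosome 12 (104884840 to 104895422, minus strand), Serpina7 on the X chromosome (135613796 to 135619775, minus strand) and Rbp4 on chromosome 19 (38191110 to 38199811, minus strand). All 9 are protein-coding, have 4 to 15 merged exons, and 8 overlap no other gene of the annotation. Ttr overlaps the antisense gene Gm16090, and whether the counting used strand is not given in the sources used here, so reads of these genes cannot be told apart. A BLAST search of the longest transcript of each member against all protein-coding transcripts found no other gene for 7 of them. Serpina7 matched Serpina9 at 65.7% identity over 715 bases, and Serpina6 matched Serpina1d at 71.9% over 121 bases, so none had a near-identical copy in this search.

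The 150 bases before the start site are shown for the 4 genes that were called in every table and have an entry in the RefSeq promoter table (build GRCm38.p6), so that the gene that rose (Serpina7) can be read beside 3 that fell (Alb, Afm and Rbp4). Each sequence matched NCBIM37 exactly once, at chr5:90889746-90889895 (plus strand) for Alb, chr5:90947825-90947974 (plus strand) for Afm, chr19:38199302-38199451 (minus strand) for Rbp4 and chrX:135619759-135619908 (minus strand) for Serpina7. Capitals mark matches on either strand, none of which overlaps another. The letters searched for a site of C/EBP factors were TTGCNNAA. For a box that positions the start they were TATAAA, the core of a TATA box.
Alb: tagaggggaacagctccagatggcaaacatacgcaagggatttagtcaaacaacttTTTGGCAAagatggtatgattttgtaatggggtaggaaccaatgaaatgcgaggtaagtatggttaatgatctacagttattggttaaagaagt
Afm: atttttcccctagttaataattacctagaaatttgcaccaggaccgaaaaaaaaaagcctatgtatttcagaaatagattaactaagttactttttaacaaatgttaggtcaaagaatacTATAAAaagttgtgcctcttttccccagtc
Rbp4: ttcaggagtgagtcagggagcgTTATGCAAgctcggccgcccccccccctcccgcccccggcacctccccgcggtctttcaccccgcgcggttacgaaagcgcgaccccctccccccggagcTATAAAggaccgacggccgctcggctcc
Serpina7: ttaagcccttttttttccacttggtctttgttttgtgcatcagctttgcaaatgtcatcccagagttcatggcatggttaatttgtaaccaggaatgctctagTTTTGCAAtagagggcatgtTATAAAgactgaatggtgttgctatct

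RefSeq promoters of 7 members were searched, in 10 windows, since Rbp4, Fetub and Serpina7 have more than 1 start site. Ttr was left out of this search, and no usable entry was found for Serpina6. For Rbp4 and Serpina7 the start further into the gene is shown. Another start of Rbp4 lies upstream, and its window held none of these motifs. C/EBP matches were in the windows of Alb, Rbp4, Ahsg and Serpina7, against 5.46% of all 32851 promoter windows of this length, and TATAAA in those of Rbp4, Fetub, Afm and Serpina7, against 7.57%. The gene that rose therefore held both motifs, the C/EBP match at -47 and the TATA box at -27, and so did Rbp4, which fell, at -128 and -28. The letters TTCNNNGAA (a STAT site) were in none of the 10 windows and in 4.09% of all windows. A match of letters is a description and was not tested for binding.

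A library held 10568530 to 12008799 reads on Illumina and 12199528 to 16439683 on Ion Torrent, and libraries were compared only within a table. In each of the 6 tables every treated library was smaller than every untreated one, with 10568530 to 10655860 against 10887640 to 11046256 reads in the Illumina STAR table. The 2 libraries of untreated mouse UNT_9584 were less alike than those of the other mice, since their deviations from the group means correlated at 0.199 to 0.249, against 0.562 to 0.728 for the other 9 mice. Of 8 hepatocyte markers 6 were lower after IL-1β by edgeR, where 22.9% of all genes tested were called lower and 22.7% higher. Their summed level was 13496 to 19656 in treated mice (in TMM-scaled CPM, which are counts scaled to library size) and 21250 to 26899 in untreated mice. Neutrophil markers were higher (5 of 5 tested, Ly6g having at most 2 reads), but their summed level was 47.4 to 103.8 CPM after IL-1β and 2.04 to 6.58 in untreated mice. Kupffer cell and macrophage markers summed to 60.0 to 139.2 CPM after IL-1β and 105.4 to 182.5 in untreated mice, endothelial markers to 102 to 170 and 102 to 160, and cholangiocyte markers to 41.8 to 73.8 and 46.0 to 63.2. Lymphocyte markers summed to at most 1.29 CPM in any treated mouse. The part of these shifts in the values of the carriers was not tested. In bulk liver, fewer cells of a type and less RNA per cell cannot be told apart.

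After IL-1β the carriers did not move as a block. In the Illumina STAR table, edgeR's quasi-likelihood test with TMM scaling called 4 of 9 lower (Alb, Rbp4, Afm and Serpina6) and 1 higher (Serpina7), and 4 were not called (Ttr, Ahsg, Gc and Fetub). The same calls were made without mouse UNT_9584. An adjusted p (Benjamini-Hochberg over all 15578 genes) below 0.05 counted as a call. Of all genes tested, 22.9% were called lower and 22.7% higher (45.7% in all), so a call was common in these livers. The median log2 fold change of the 9 members was -0.31, beside 0.0046 over the 11929 genes whose mean count reached 10. That of the 8 hepatocyte markers was lower still, at -0.50, so a fall was not particular to the carriers. By the rank test named in the study's methods, which uses the deposited counts without further scaling, 7 of 9 members were lower and 1 higher, and Ahsg was not called. That test called 24.3% of all genes lower and 13.8% higher. Over the same 11929 genes the median ratio of deposited counts was -0.17 (log2, IL-1β over saline), and TMM scaling set it close to 0. With total counts in place of TMM, edgeR called 7 members lower and 1 higher, against 27.8% and 17.6% of all genes. Of the remaining methods, DESeq2 called 48.3% of the 14785 genes to which it gave an adjusted p, limma-voom called 46.2% of all genes and edgeR with upper-quartile scaling 45.8%.

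**Figure D1:**
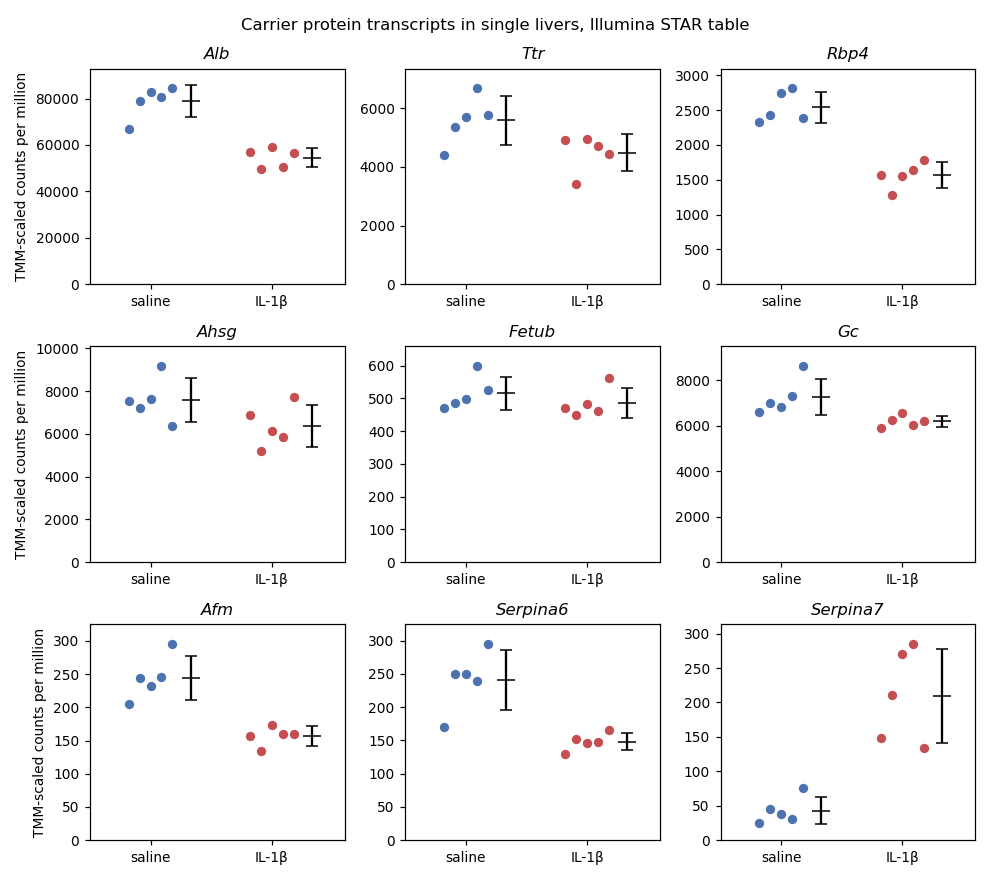
TMM-scaled CPM (y axis, from 0) of the 9 carriers in the Illumina STAR table, with 1 point for each of the 5 saline (blue) and 5 IL-1β (red) livers and the mean ± SD in black. The groups stand apart for Alb, Rbp4, Gc, Afm and Serpina6, with treated livers lower, and for Serpina7, with treated livers higher, while those of Ttr, Ahsg and Fetub overlap.

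Albumin, the main protein of plasma and a carrier of fatty acids and many drugs, was the most abundant of the 9. The counts in the treated mice (in the order ILB_9577, ILB_9578, ILB_9579, ILB_9582 and ILB_9583, kept below) were 598518, 505223, 593930, 510866 and 563058, and those in the untreated mice (UNT_9574, UNT_9575, UNT_9576, UNT_9580 and UNT_9584, kept below) were 805525, 929666, 966350, 908985 and 908985. Every treated mouse lay below every untreated mouse. The fitted level after IL-1β was 0.692 times that in untreated mice (95% interval 0.575 to 0.832), a log2 fold change of -0.53 (SE 0.12, adjusted p = 0.00267 by edgeR). Alb reads took 5.22% of a library after IL-1β, on average, and 8.23% in untreated mice.

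Afamin, a vitamin E-binding member of the albumin family, fell too. Its treated mice had 1660, 1356, 1749, 1604 and 1593 reads, and its untreated mice 2455, 2859, 2697, 2764 and 3177. The groups did not overlap, and the log2 fold change was -0.64 (SE 0.11, adjusted p = 0.000204 by edgeR). Gc, the vitamin D-binding protein, had 62493, 63513, 66154, 60871 and 61760 reads in treated mice and 79215, 82276, 79453, 82308 and 92855 in untreated mice. These counts did not overlap either, nor did the TMM-scaled values, but the log2 fold change of -0.23 (SE 0.11) did not pass edgeR's test (adjusted p = 0.0975). Gc passed with DESeq2 (adjusted p = 0.0232), limma-voom (0.0310), upper-quartile factors (0.0255) and with total counts in place of TMM (0.00447). Afp, the fetal member of the family that lies between Alb and Afm, had 2.40 ± 1.14 reads after IL-1β and 4.60 ± 1.82 in untreated mice (SD, n = 5), and its log2 fold change of -0.73 (SE 0.45) did not pass by edgeR (adjusted p = 0.215).

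The carriers of retinol and thyroxine differed in the size of their change. Rbp4, which takes retinol from the liver to other tissues, fell in every table. Treated mice had 16523, 13009, 15651, 16591 and 17723 Rbp4 reads, and untreated mice 28050, 28582, 31988, 31675 and 25622. The highest treated mouse was well below the lowest untreated one, and the log2 fold change was -0.70 (SE 0.11, adjusted p = 0.000118 by edgeR), or 0.616 times the untreated level (95% interval 0.523 to 0.727). Its partner Ttr, transthyretin (chromosome 18, 20823751 to 20832825, plus strand), had 51735, 34764, 49837, 47693 and 44126 reads in treated mice and 52968, 63023, 66484, 75214 and 61992 in untreated mice. The highest treated mouse (ILB_9577) was just below the lowest untreated one (UNT_9574), and after TMM scaling the groups overlapped. The log2 fold change of Ttr was -0.31 (SE 0.14), which edgeR did not call in the Illumina STAR table (adjusted p = 0.0710). It was called there without untreated mouse UNT_9574 (-0.40, adjusted p = 0.0251), with DESeq2 (adjusted p = 0.0417), with upper-quartile factors (0.0280) and without TMM (0.00921).

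On Ion Torrent, Ttr was called lower with all 3 aligners, at log2 fold changes of -0.41 to -0.43 and adjusted p of 0.0130 to 0.0149 by edgeR. The Ion Torrent STAR counts of Ttr were 75185, 56667, 76461, 72962 and 70733 in treated mice and 88452, 103569, 100203, 115172 and 113748 in untreated mice, which did not overlap, while the TMM-scaled values did. The Ttr effects of the platforms were not shown to differ, since the platform-by-treatment term of edgeR with the mouse as a block was -0.08 (95% interval -0.20 to 0.05, adjusted p = 0.810).

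The hormone-binding serpins moved in opposite directions. Serpina6 had 1364, 1537, 1471, 1488 and 1647 reads in treated mice and 2040, 2935, 2917, 2693 and 3172 in untreated mice. Its groups did not overlap, and the log2 fold change was -0.70 (SE 0.13, adjusted p = 0.000368 by edgeR). Serpina7 had 1563, 2136, 2725, 2873 and 1326 reads in treated mice and 298, 534, 451, 338 and 818 in untreated mice. Each treated mouse exceeded each untreated one, with untreated UNT_9584 the highest of its group. Serpina7 rose to 4.88 times the untreated level (95% interval 3.20 to 7.42), a log2 fold change of 2.29 (SE 0.28, adjusted p = 1.15e-05 by edgeR). Without mouse UNT_9584 the log2 fold change was 2.59. On Ion Torrent with STAR, Serpina7 had 1044, 1780, 1822, 2067 and 688 reads in treated mice and 201, 317, 316, 231 and 384 in untreated mice. The groups again did not overlap, and the log2 fold change was 2.51 (adjusted p = 7.73e-07 by edgeR).

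Neither fetuin was called. Ahsg (fetuin-A) had 72566, 52781, 61605, 59053 and 76712 reads in treated mice and 90442, 84992, 89013, 103167 and 68414 in untreated mice. The groups overlapped, since treated ILB_9577 and ILB_9583 lay above untreated UNT_9584, and the log2 fold change of -0.26 (SE 0.13) did not pass by edgeR (adjusted p = 0.137). Fetub (fetuin-B), an inhibitor of the egg protease ovastacin, had 4575 to 5588 reads in treated mice and 5644 to 6737 in untreated mice. Its counts did not overlap, but after TMM scaling they did, and its log2 fold change was -0.08 (95% interval -0.30 to 0.13, adjusted p = 0.535 by edgeR). Ahsg passed with total counts in place of TMM (-0.39, adjusted p = 0.0244), and Fetub was not called by edgeR under any scaling run.

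Counted by overlap of the deposited counts in the Illumina STAR table, 7 members were lower in every treated mouse than in every untreated mouse and 1 was higher. Of all genes, 21.4% were lower without overlap and 12.1% higher. After TMM scaling the numbers were 5 and 1, against 16.2% and 17.6% of all genes. On Ion Torrent with STAR, 6 members were lower and 1 higher without overlap of the counts, against 21.1% and 10.2% of all genes. After TMM scaling only 2 were lower there (Alb and Rbp4) and 1 higher (Serpina7), against 15.6% and 15.5%, and the other 6, Afm and Serpina6 among them, overlapped. The counts carry the smaller totals of the treated libraries with them.

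Levels were compared between members per kb of exon, as TMM-scaled CPM per kb in the Illumina STAR table. In untreated mice Alb was highest at 38611 ± 3384 (SD, n = 5), followed by Ahsg at 5147 ± 691, Ttr at 4582 ± 672 and Gc at 4365 ± 482. Rbp4 came next at 1960 ± 171, then Fetub at 270 ± 26.4, Serpina6 at 137 ± 25.6, Afm at 80.3 ± 10.9 and Serpina7 at 17.6 ± 8.20. The ranges of Ahsg and Ttr, of Ttr and Gc, and of Serpina6 and Afm overlapped, and those of the other neighbors did not. After IL-1β the means of Ttr and Gc changed places, with overlapping ranges, and Serpina7 at 85.6 ± 28.1 stood beside Serpina6 at 84.1 ± 7.41, also with overlapping ranges, while Afm was at 51.6 ± 4.76. In the Ion Torrent STAR table Serpina6, at a mean of 82.1, stood above Serpina7, at 51.3, without overlap. With GSNAP (83.8 and 59.9) and with STAR + Bowtie2 (80.5 and 60.8) on Ion Torrent their treated ranges overlapped. Together the 9 genes took 10.7% ± 0.571 of the reads of a library in untreated mice (SD, n = 5) and 7.10% ± 0.523 after IL-1β, with ranges of 9.80 to 11.3 and 6.42 to 7.61. Without Alb the shares were 2.51% ± 0.160 and 1.88% ± 0.144.

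**Figure D2:**
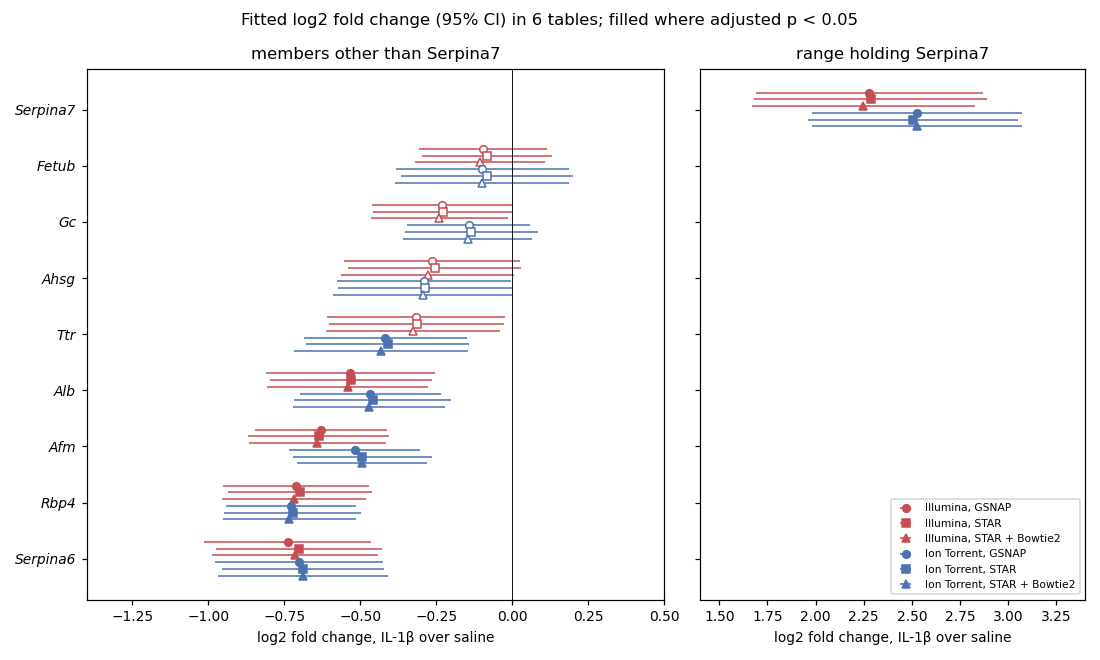
Fitted log2 fold change of IL-1β over saline (x axis) for each carrier in the 6 tables, with 95% intervals as bars, filled symbols where the adjusted p was below 0.05, Illumina in red and Ion Torrent in blue. The x axis is split into panels so that Serpina7, at 2.25 to 2.53, can be seen beside the others, which lie between -0.74 and -0.08.

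The direction of each member was the same in all 6 tables. Serpina7 ranged from 2.25 to 2.53 on the log2 scale, Serpina6 from -0.74 to -0.69, Rbp4 from -0.73 to -0.70, Afm from -0.64 to -0.49 and Alb from -0.54 to -0.46, and all 5 were called in each table by edgeR. Gc (-0.24 to -0.14), Ahsg (-0.29 to -0.26) and Fetub (-0.11 to -0.08) were called in none of them. With each of the 3 aligners, 4 members were called lower and 1 higher on Illumina, and 5 lower and 1 higher on Ion Torrent, with Ttr as the addition. On Illumina, 23.9% of all genes were called lower and 23.7% higher with GSNAP, and 24.4% and 22.9% with STAR + Bowtie2. On Ion Torrent the shares lower and higher were 21.8% and 20.3% with STAR, 23.9% and 22.5% with GSNAP, and 24.0% and 22.8% with STAR + Bowtie2. The tables share their mice and, within a platform, their libraries, so they are not independent repeats.

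None of the 9 effects was shown to differ between the platforms. The interaction of platform and treatment, estimated by edgeR over the 20 STAR libraries with the mouse as a block, was called for 0 of 9 members, and 0 had an unadjusted p below 0.05. Of all genes, 0.00642% were called with STAR, 0.0642% with GSNAP and 0.077% with STAR + Bowtie2. Every interval of the 9 terms lay between -0.20 and 0.39, the widest being that of Serpina7 (0.15, 95% interval -0.10 to 0.39). The Serpina7 term was 0.03 without UNT_9584, 0.07 without ILB_9578 and up to 0.24 without another mouse (UNT_9576). Leaving out 1 mouse gave 0 calls among the members, but 1 to 3 of them (among Afm, Alb and Gc) had an unadjusted p below 0.05 in 5 of the 10 fits, with 3 without UNT_9576. With GSNAP and with STAR + Bowtie2, with limma-voom or DESeq2, and with no block, 0 members were called as well, also with 0 at an unadjusted p below 0.05.

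**Figure D3:**
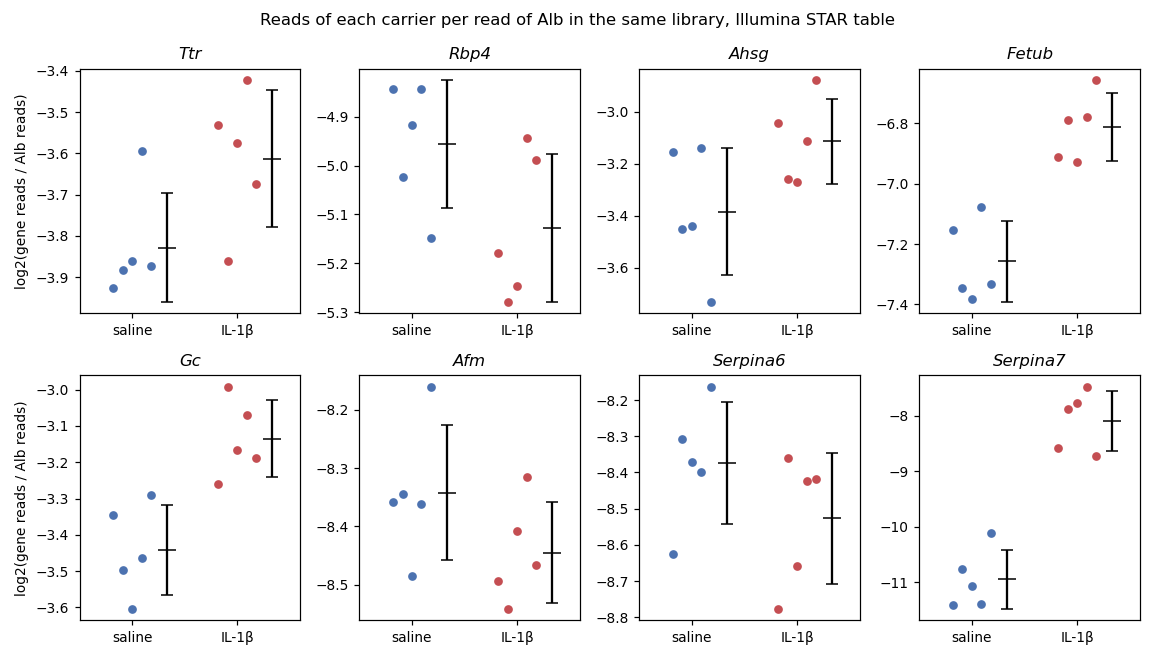
Log2 of the reads of each carrier per read of Alb in the same library (y axis) in the Illumina STAR table, with 1 point for each of the 5 saline (blue) and 5 IL-1β (red) livers and the mean ± SD in black. The groups do not overlap for Fetub, Gc and Serpina7, and overlap for the other 5.

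Relative to Alb in the same library, which needs no scaling between libraries, 3 of 8 members differed. Alb itself fell, and of all other genes 36.2% had a higher ratio to Alb in every treated library and 4.64% a lower one, so the count is near that of genes in general. The log2 ratio to Alb rose by 2.86 for Serpina7, 0.45 for Fetub and 0.31 for Gc, each with an exact two-sided permutation p of 0.00794, the smallest that 5 mice against 5 allow, and 0.0212 after adjustment over the 8 ratios. Gc and Fetub, neither of which was called on its own, thus changed less than Alb in these libraries. The shifts for Ahsg (0.27, exact permutation p = 0.0794), Ttr (0.22, p = 0.0556), Rbp4 (-0.17, p = 0.0952), Afm (-0.10, p = 0.151) and Serpina6 (-0.15, p = 0.167) did not pass. In the 3 Ion Torrent tables the ratio of Rbp4 to Alb did pass, at shifts of -0.27 and adjusted p of 0.0212 by the same exact permutation test. In the Ion Torrent STAR table that of Fetub did not (0.37, exact permutation p = 0.0317, adjusted p = 0.0635). It did pass on Ion Torrent with GSNAP (0.35) and with STAR + Bowtie2 (0.36), at an adjusted p of 0.0476 by that test in each.

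**Figure D4:**
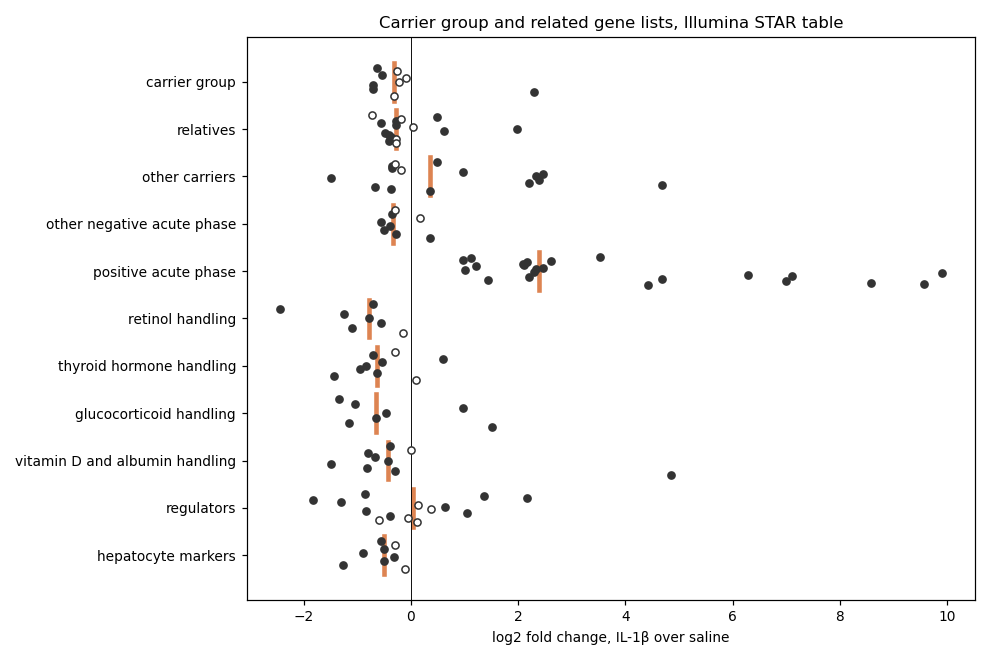
Log2 fold change of IL-1β over saline (x axis) in the Illumina STAR table for each gene of the carrier group and of related lists (y axis), filled where edgeR's adjusted p was below 0.05, with the median of each list in orange. The positive acute phase genes all lie above 0, and most genes of retinol, thyroid hormone and glucocorticoid handling lie below it.

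The relatives and genomic neighbors of the members were read in the same way, against the 22.9% lower and 22.7% higher of all genes. Of 15 relatives 7 were lower and 3 higher (median log2 fold change -0.28). Serpina10, an inhibitor of coagulation factor Xa that lies 15.2 kb from Serpina6 on chromosome 12, rose by 1.98 (SE 0.11, adjusted p = 5.37e-09 by edgeR) while Serpina6 fell. Serpina11 (0.62) and Ambp (0.49), the precursor of alpha-1-microglobulin and bikunin, rose as well. Hrg, the histidine-rich glycoprotein that lies 11.3 kb beyond Fetub, had 5505 ± 537 reads after IL-1β and 9190 ± 176 in untreated mice (SD, n = 5), with a log2 fold change of -0.56 (adjusted p = 0.000172 by edgeR). Kng1, the kininogen gene further along that chromosome, was called lower in the Illumina STAR table (-0.29, adjusted p = 0.0314 by edgeR) but in none of the Ion Torrent tables, and its call was lost without each of 4 single mice. Ahsg and Fetub were not called where their neighbor Hrg was, and that difference was not tested.

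The other carriers and the further negative acute phase genes went both ways, while the positive acute phase genes all rose. The comparison lists share genes, so their counts are not separate results. Of all genes, 22.9% were lower and 22.7% higher. Of 15 other plasma carriers 8 were higher and 5 lower (median 0.36), led by Orm2 (orosomucoid, a log2 fold change of 4.69), Hp (haptoglobin, which binds hemoglobin, 2.47), Igfbp1 (2.39) and Hpx (hemopexin, which binds heme, 2.32). Of 8 further genes listed as negative acute phase genes, 5 were lower and 1 higher (median -0.33), with Hrg in the list of relatives as well. Hrg, Pon1 (-0.51), a lipoprotein-bound esterase, and Igf1 (-0.39) were lower, and Trf, transferrin, the iron carrier, rose by 0.36 (SE 0.10, adjusted p = 0.00824 by edgeR) against its place in that list, a call made in 4 of the 6 tables. The Igf1 call was lost without each of 4 single mice (untreated UNT_9576 or UNT_9584, treated ILB_9577 or ILB_9583), with an adjusted p of up to 0.0731 by edgeR. All 22 positive acute phase genes were higher (median 2.40), with Lcn2 at 9.90, Saa3 at 9.56, Saa2 at 8.58 and Mt2 at 7.10.

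Genes that handle the ligands of the carriers were mostly lower, where 22.9% of all genes were called lower and 22.7% higher. Of 7 retinol-handling genes tested, 6 were lower and 0 higher (median -0.78, with 1 not called). They were led by Cyp26a1, which breaks down retinoic acid (-2.44, adjusted p = 1.75e-06 by edgeR), Lrat, which esterifies retinol for storage (-1.25), and the retinol dehydrogenase gene Rdh16 (-1.09). Lrat is also 1 of the 5 stellate cell markers, of which 3 were lower, and it is counted among those 3 and in their sum. The 5 markers summed to 51.0 to 82.6 CPM in treated mice and 97.6 to 135.4 in untreated mice. The part of stellate cells in the Lrat value was not tested. Rbp4 was thus lower in the same livers as 6 of these 7 genes.

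The next 3 lists are set against the same 22.9% lower and 22.7% higher of all genes. Of 9 genes for thyroid hormone handling, 6 were lower and 1 higher (median -0.63). Thrb, the main thyroid hormone receptor of liver, was at -1.43 (SE 0.14, adjusted p = 1.10e-06 by edgeR), the uptake transporters Slco1b2 and Slco1a1 at -0.95 and -0.84, and Dio1, which makes the active hormone from thyroxine, at -0.70. Of the thyroxine carriers, Serpina7 rose and Alb fell in the same livers, and Ttr was called lower on Ion Torrent but not on Illumina. Of 7 genes for glucocorticoid handling, 5 were lower and 2 higher (median -0.65). Tat, a classic glucocorticoid-induced gene, rose by 1.51, while the steroid-reducing enzymes Akr1d1 and Srd5a1 were at -1.35 and -1.15 and the receptor co-chaperone Fkbp4 at -1.03. Of 9 genes tested for the handling of vitamin D and albumin-bound ligands, 7 were lower and 1 higher (median -0.43). Slc27a2, a fatty acid transporter, was at -0.82 and Cyp2r1, a vitamin D 25-hydroxylase, at -0.80. Lrp2, a receptor known from kidney, had 5.00 ± 2.92 reads against 16.2 ± 11.1 (SD, n = 5), and its call (-1.49) was lost without each of 5 single mice (treated ILB_9577 or ILB_9579, untreated UNT_9574, UNT_9575 or UNT_9584). The vitamin D receptor gene Vdr had 13.4 ± 8.47 reads in treated mice and 0.400 ± 0.894 in untreated mice (SD, n = 5), which edgeR called higher (adjusted p = 8.43e-05).

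Of 14 transcription factor genes known to act on liver promoters, 5 were lower and 4 higher (median 0.03), against 22.9% and 22.7% of all genes. Cebpd rose by 2.17 (SE 0.26, 60.0 against 15.0 reads) and Cebpb by 1.37, while Cebpa was at -0.85 (adjusted p = 0.000920 by edgeR), so the C/EBP members did not share a direction. Cebpb overlaps the antisense gene Tmem189, and Hnf4a and Dbp also overlap antisense genes, with the same limit as for Ttr. Of the genes named in the lists above, Igf1, Lrat, Thrb, Srd5a1 and Slc27a2 overlap an antisense gene and share this limit. Hnf4a rose by 1.05, Foxa2 (0.13, adjusted p = 0.810 by edgeR) did not pass and ranged from -0.24 to 0.39 without each mouse, and Foxa1 was at -1.30. Dbp, a clock-controlled factor named for its binding to the albumin promoter, was at -1.82 (SE 0.31, adjusted p = 0.000232 by edgeR). The share of these changes in the levels of the carriers was not tested.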

How the data were processed

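The values deposited by the authors are whole-number counts per gene, from reads aligned to mm9 with GSNAP, STAR 2.5.1b or STAR followed by Bowtie2 2.2.9. With PORT they removed rRNA and mitochondrial reads and drew the reads of each table down to its smallest library (totals are in the report), with Ensembl gene models. All 60 count columns were used. Gene totals still differed, being lower in every treated library, and the rank test uses the counts without a correction for this.

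The 15578 detected genes were fitted by edgeR 4.0.16 (quasi-likelihood, TMM, treated against untreated within a table). The rank test, exact permutation tests of log2 ratios to Alb, and a platform-by-treatment term with the mouse as a block followed. The mouse labels pair the libraries across platforms, and the deviations of paired libraries correlated positively for all 10 mice. Alternatives were DESeq2 1.42.0, limma-voom (limma 3.58.1), other scalings, filters and thresholds, and leaving out each mouse. Counts were simulated for the 15578 genes of the Illumina STAR table, with 200 genes of higher counts changed by 1.5 (log2). No carrier but Serpina7 changed by that much, so the simulation does not measure how often smaller changes are found. The same spread was assumed for all genes. There edgeR found 200 and called 5 others, while the rank test found 0. Its smallest exact p with 5 mice against 5 is 0.00794, which cannot pass adjustment when only 200 of 15578 genes change. That 0 was thus fixed by the setting and does not measure the rank test in the data, where it called 5932 genes.

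The members and lists were chosen with earlier results of these data known. Named genes are the 9 members, up to 4 per list with the largest change among those called in the Illumina STAR table and of 1 sign in all 6 tables, and Afp, Hrg, Kng1, Hnf4a, Cebpa, Cebpb and Foxa2. A few genes that the rule names are not reported here. P-values measure the spread between mice. Sequences are from RefSeq (GRCm38.p6), and transcripts were compared with BLAST+ 2.17.0. Scripts ran in R 4.3.3 and in Python 3.11.15 with matplotlib 3.10.9, pandas 2.3.3, scipy 1.17.1 and numpy 2.4.6.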

Additional observations from a re-analysis of the deposited data

Results flagged for a closer look

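Each group of 5 mice was searched for a library whose gap to its nearest neighbor was more than 0.71 of the range of the group, in the TMM-scaled values of the 9 members in both STAR tables. Of 36 groups 2 held one, and chance gives about 1 in 20.

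Ttr in treated mouse ILB_9578 stood at 4781 CPM on Ion Torrent, below 6092 to 6527 in the other 4 treated mice. The same mouse was also the lowest of its group on Illumina. Without it the log2 fold change of Ttr was -0.32 (adjusted p = 0.0452 by edgeR) on Ion Torrent in place of -0.41, and -0.23 (adjusted p = 0.150) on Illumina in place of -0.31.

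Serpina6 in untreated mouse UNT_9574 stood at 166.0 CPM on Ion Torrent, below 231 to 258 in the other 4 untreated mice, and it was the lowest on Illumina too. Without it the log2 fold change of Serpina6 was -0.79 on Ion Torrent in place of -0.69, and -0.81 on Illumina in place of -0.70.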

How the results depend on the processing

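The 5 calls of the Illumina STAR table (Alb, Rbp4, Afm and Serpina6 lower, Serpina7 higher) held under each alternative run with edgeR, DESeq2 or limma-voom, including a threshold of 0.01 and the fits without each mouse (5 to 6 members called). The number of members called rose to 8 (7 lower, 1 higher) with total counts in place of TMM, and was 7 with upper-quartile factors or DESeq2 and 6 with limma-voom. Without TMM, 4335 genes were called lower and 2746 higher, in place of 3575 and 3541. Over the other 5 tables, 28 of 45 member tests passed, and 27 to 33 without each mouse. The rank test called 8 members, and 0 to 0 without any 1 mouse, when 8 to 9 members still had an unadjusted p below 0.05. With 4 mice against 5 its smallest p is 0.0159, and it then called 0 of all genes. The number of ratios to Alb that differed was 3 of 8, and 3 to 4 without each mouse. It was 5 of 9 (4 lower, 1 higher) when the geometric mean of the other 8 members replaced Alb. That mean includes Serpina7, whose rise lowers the ratio of every other member. No share over all genes was computed for it, so this count is not read as a result about the members. With each gene counted once, the lists held 79 calls among 95 genes tested, and 72 to 78 without each mouse. Of all genes, 45.7% were called. Fitting the platform-by-treatment term with no replicate block gave 0 member calls, as with the block, and left Serpina7 at 0.23 (SE 0.42) in place of 0.15. The mouse block changed no other call of a member. No called result of a named gene changed direction. Among those not called, Foxa2 did without ILB_9577 (-0.24) or UNT_9574, and Fetub on Ion Torrent did without ILB_9578 (0.015) or UNT_9580. Depth limits Afp, Vdr and Lrp2, which had few reads.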

Other observations

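In both treatments the mice with the most Ahsg reads had few Serpina7 reads, though the order was not opposite throughout. Among the treated mice of the Illumina STAR table, ILB_9583 and ILB_9577 had the most Ahsg reads (76712 and 72566) and the fewest Serpina7 reads (1326 and 1563), and ILB_9579 and ILB_9582 had 61605 and 59053 Ahsg reads and 2725 and 2873 Serpina7 reads. ILB_9578 went against this, with the fewest Ahsg reads (52781) and 2136 Serpina7 reads. On Ion Torrent the same mice, ILB_9583 and ILB_9577, again had the most Ahsg reads (109931 and 101240) and the fewest Serpina7 reads (688 and 1044). Among the untreated mice on Illumina, UNT_9584 had the fewest Ahsg reads (68414) and the most Serpina7 reads (818), while UNT_9580 and UNT_9574 had the most Ahsg reads (103167 and 90442) and the fewest Serpina7 reads (338 and 298). On Ion Torrent UNT_9584 again had the fewest Ahsg reads (107507) and the most Serpina7 reads (384). With 5 mice in each treatment no correlation is given, and this order was noticed after the values were seen.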
